A study of Citrus sinensis and Citrus junos and Citrus trifoliata with 12 samples.

Results

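The stem of a grafted orange tree was compared between trees on Ziyang xiangcheng (Citrus junos, written Cj) and trees on trifoliate orange (Poncirus trifoliata, written Pt). The 4 stem libraries, 2 from each rootstock, were taken out of the 12 of the series by their titles, and no measured value entered that choice. All 4 came from the scion, the navel orange 'Lane Late' (Citrus sinensis), so both sides hold the same cultivar and differ in the root system below the graft. The trees stood in the same orchard, were planted in 2009 and were sequenced in 2015, and every library is labelled 140 DAF. No treatment separates the groups: the series title speaks of saline-alkali stress, but the labels give neither stressed nor unstressed trees.

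In a grafted citrus tree the rootstock supplies water and mineral ions to the scion through the xylem and receives sugars through the phloem. Hormones, peptides and RNAs also pass the graft union along these routes. The stem holds both kinds of vessel beside cambium and bark, and rootstocks are chosen for how they alter the vigour and soil tolerance of the scion above them. A bulk library averages all of these cells, so fewer cells of a type and less RNA per cell cannot be told apart in any difference below.

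The stem libraries held 10614334 and 11268796 estimated counts on Cj and 11383332 and 10963684 on Pt. They listed 22911 to 23152 genes each, and the 10 most abundant genes took 3.18% to 3.45% of a library. Of the 24892 genes listed in any stem library, 19527 had enough counts to be tested and carried 99.9% of the counts. The labelled tissue could not be checked against named marker genes, because 0 of the 26559 gene IDs of the series matched a name. The stem libraries correlated with each other at r = 0.983 to 0.989 over those 26559 genes, with leaf libraries at 0.933 to 0.952 and with root libraries at 0.751 to 0.774. Genes are not independent replicates, so these values are a description. The submitters call the libraries biological replicates but name no trees, so the p-values reflect library-to-library spread, which may be technical. No gene in the files carries a name or a description, and the genes below are given by ID without a function.

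Most of the stem transcriptome was close between rootstocks, and by 1 of the measures below a pair across rootstocks was closer than a pair on the same rootstock. Over 15696 genes with a mean log2 level of at least log2 of 5 CPM (counts scaled to a common library total, with TMM factors), the median absolute log2 ratio was 0.161 between the Cj replicates and 0.164 between the Pt replicates. Across rootstocks it was 0.233 and 0.250 for Cj replicate 1 against Pt replicates 1 and 2. For Cj replicate 2 it was 0.192 and 0.179, nearer to the spread within a rootstock. At least 2-fold apart were 1.48% of these genes between the Cj replicates and 0.599% between the Pt replicates. Cj replicate 1 was that far from the Pt libraries in 4.66% and 5.03% of genes, but Cj replicate 2 in 1.82% and 1.09%. Cj replicate 2 thus differed 2-fold from Pt replicate 2 in fewer genes than from the other library on its own rootstock.

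**Figure D1:**
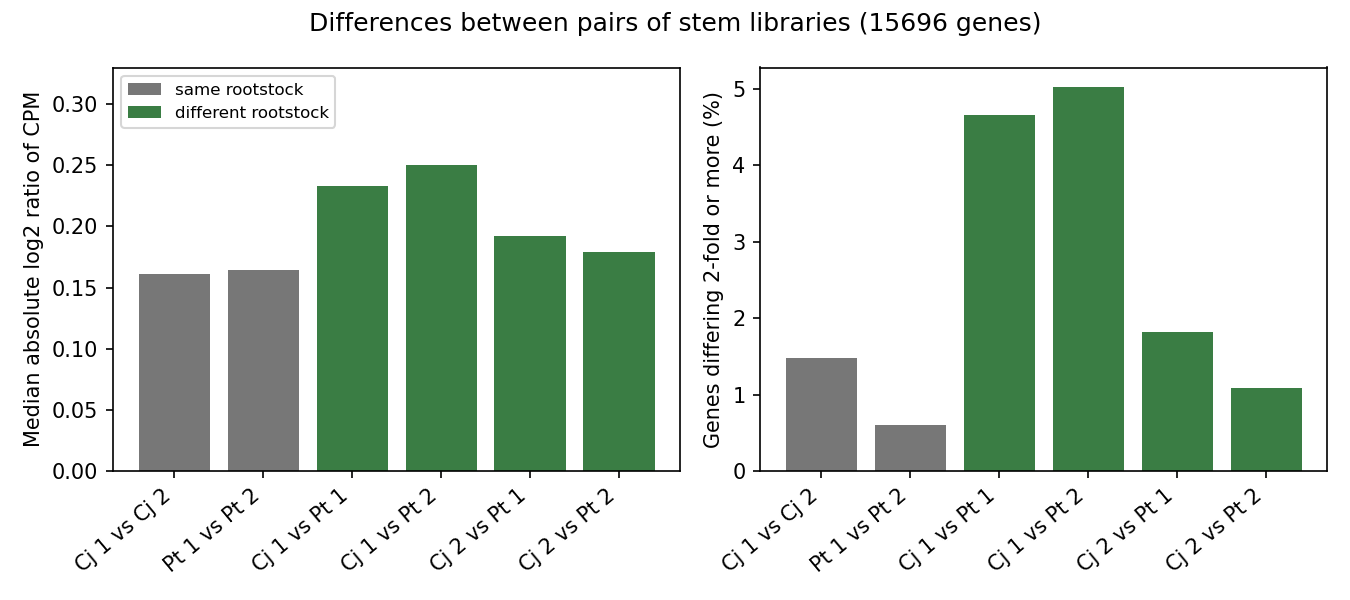
Differences between each of the 6 pairs of stem libraries over 15696 genes, as the median absolute log2 ratio of CPM (left) and as the percentage of genes at least 2-fold apart (right). Grey bars are pairs on the same rootstock and green bars pairs on different rootstocks; the pairs with Cj replicate 1 reach 0.233 and 0.250, and those with Cj replicate 2 stay at 0.192 and 0.179.

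The first question was which genes hold a difference in both libraries of each side. Of 19190 tested genes with a mean of at least 1 CPM, 4717 stood higher in both Cj libraries than in both Pt libraries and 4725 stood lower in both, which is 49.2% of the genes considered. If the libraries were interchangeable, 2 against 2 would separate in this way with a probability of 0.333 per gene. The share was not tested against that value, since genes are not independent. Few of the differences held in both libraries of each side were large. A gap of at least 1.5-fold between the nearest libraries of the 2 sides was held by 375 genes higher and 338 lower on Cj, or 3.72%. At least 2-fold apart were 58 higher and 89 lower, or 0.766%, and at least 4-fold apart 3 higher and 9 lower, or 0.0625%. The lean to lower genes at 2-fold held without Cj replicate 1, at 96 higher and 198 lower, and turned when any one of the other libraries was left out. Without Cj replicate 2 the counts were 495 and 344, without Pt replicate 1 193 and 166, and without Pt replicate 2 239 and 235. Leaving out a library also eases the criterion, since that side then has a single value.

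Where the sides separated, Cj replicate 1 mostly lay farther out than Cj replicate 2. This held for 3120 of the 4717 genes higher on Cj (66.1%) and for 3077 of the 4725 lower on Cj (65.1%). Over all 19527 genes tested, Cj replicate 1 exceeded replicate 2 in 49.6%, a balance that the scaling of the libraries itself brings about. Among genes with a 2-fold gap the share was 48 of 58 higher and 74 of 89 lower. What accounts for it was not tested.

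In edgeR's quasi-likelihood F-test, with p-values adjusted by Benjamini-Hochberg across the 19527 genes, 66 genes (0.338%) had an adjusted p under 0.05, of which 30 rose and 36 fell on Cj. Without adjustment 3318 genes (17.0%) had p under 0.05, 1838 of them higher and 1480 lower. All 66 called genes had both libraries of one side above both of the other, which a low p-value from 2 libraries against 2 favours. Of all 19527 genes tested, the sides overlapped in 9960. At least 2-fold in the fit were 25 of those that rose and 30 of those that fell, and at least 4-fold were 4 and 12. The log2 fold changes ran from 0.91 to 2.78 among genes that rose, with a median of 1.43. They ran from -0.85 to -7.57 among genes that fell, with a median of -1.42. The -7.57 belongs to orange1.1t03944, which has no counts on Cj, so its size depends on the prior count of the fit and is no measured fold; the next was -6.21. The median over all genes tested was -0.01. For single genes an exact two-sided permutation test of 2 libraries against 2 cannot go below p = 0.333, so the calls rest on the spread that the model shares between genes.

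**Figure D2:**
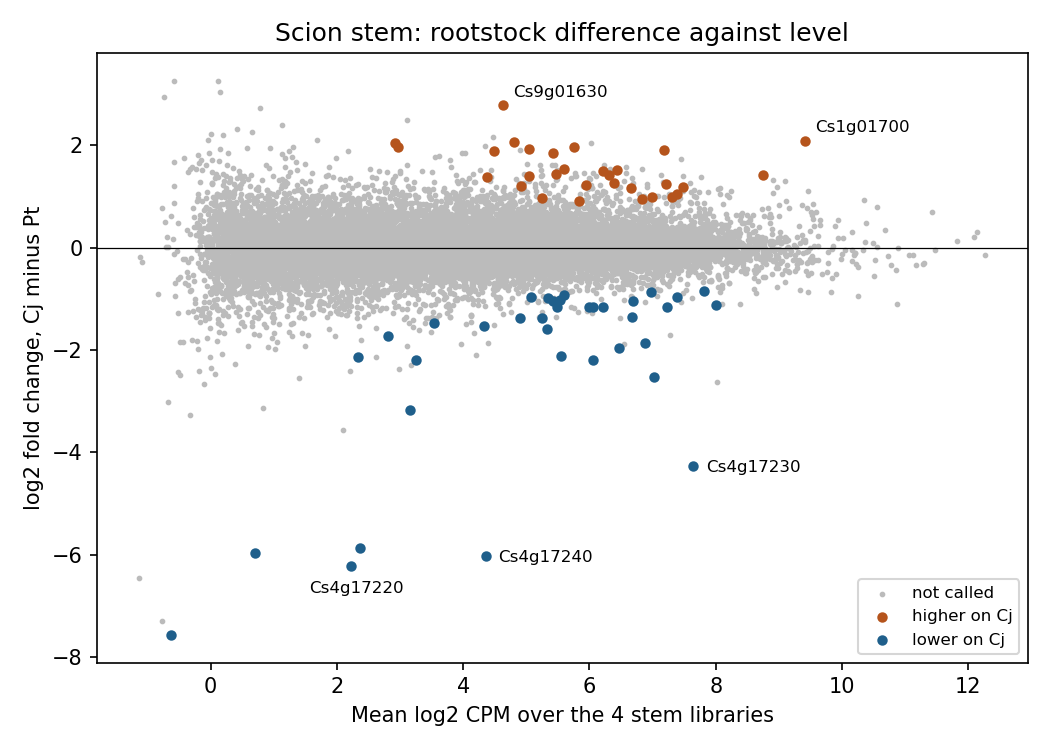
Each point is a tested gene, with its mean log2 CPM over the 4 stem libraries on the x axis and its log2 fold change (Cj minus Pt) on the y axis. The 30 called genes higher on Cj are orange, the 36 lower on Cj are blue; the called genes reach 2.78 upward and -7.57 downward, and most genes lie near 0.

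For most genes the fit also bounded the difference between these libraries from above. In 14598 of the 19527 genes (74.8%) the 95% interval of the fitted log2 fold change lay within a 2-fold difference either way. Like the p-values, the intervals reflect library-to-library spread, which may be technical, and need not bound the difference across trees. A difference of 2-fold or more was fitted for 728 genes, and 55 of them were called. The genes that rose summed to 5924 and 4769 CPM in the Cj libraries and to 1810 and 1948 CPM in the Pt libraries. The genes that fell summed to 1430 and 1514 CPM on Cj and to 4945 and 4476 CPM on Pt. In each set the groups did not overlap, as the choice of genes requires.

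The ID with the largest increase among called genes of at least 3 on the mean log2 CPM scale was Cs9g01630, listed with 1 transcript of 1863 bases. It stood at 72.9 and 55.8 CPM in the Cj libraries and at 9.58 and 9.18 CPM in the Pt libraries. Both Cj libraries lay far above both Pt libraries, with a gap of 5.82-fold between the nearest values. Its log2 fold change was 2.78 ± 0.18 (SE, n = 2 per side, edgeR adjusted p = 0.00508). It kept its call in all fits tried except the one without Pt replicate 2, where the adjusted p was 0.0536.

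Cs1g01700, listed with 8 transcripts, was the more abundant of the pair chosen in this direction. Its level was 1659 and 1175 CPM on Cj and 315.2 and 351.3 CPM on Pt, so the lower Cj library was 3.35-fold above the higher Pt library. In the deposited FPKM, which are scaled to gene length, it reached 707.2 and 522.0 on Cj against 138.3 and 153.9 on Pt. The log2 fold change was 2.09 ± 0.19 (SE, edgeR adjusted p = 0.0157). The call was lost when Pt replicate 1 was left out (edgeR adjusted p = 0.0945), without Pt replicate 2 (edgeR adjusted p = 0.073) and with limma on log2(FPKM + 0.1) (adjusted p = 0.0505), while the log2 fold change stayed between 1.82 and 2.32 in all fits. The tested IDs next to these genes in ID order did not pass. Beside Cs9g01630 they were Cs9g01620, with a log2 fold change of -0.32 ± 0.20, and Cs9g01634, with 0.79 ± 0.52. Beside Cs1g01700 they were Cs1g01690, with 0.26 ± 0.57, and Cs1g01750, with -0.03 ± 0.33 (SE, edgeR adjusted p = 0.464 to 0.975 over the 4).

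Large decreases lay in 3 consecutive IDs, Cs4g17220, Cs4g17230 and Cs4g17240. Cs4g17240 and Cs4g17230 had the largest among called genes whose mean log2 CPM reached 3. Cs4g17240, listed with a length of 240 bases, was at 3.86 and 1.41 CPM on Cj and at 208.4 and 130.6 CPM on Pt. Cs4g17230, of 647 bases, was at 58.5 and 34.9 CPM on Cj against 1075 and 723.4 CPM on Pt. Cs4g17220, of 662 bases, was at 0.676 and 0.264 CPM on Cj and 39.2 and 30.9 CPM on Pt. In each the Cj libraries lay well below the Pt libraries, with gaps of 33.8-fold, 12.4-fold and 45.8-fold between nearest values. In each the replicate numbered 1 was also the higher library on either rootstock.

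The fitted log2 fold changes of the run were -6.02 ± 0.40 for Cs4g17240, -4.27 ± 0.30 for Cs4g17230 and -6.21 ± 0.34 for Cs4g17220 (SE, n = 2 per side). The edgeR adjusted p-values were 0.00508, 0.00587 and 0.00314 in that order. Cs4g17220 lies below the level asked of the others and was named because it neighbours them. On the Cj side it rests on 7 and 3 counts, so the size of its fold change there is limited by depth. On the length-scaled FPKM scale Cs4g17230 was the most abundant of the run on Pt, at 1752 and 1150, followed by Cs4g17240 at 1019 and 623.0 and Cs4g17220 at 62.3 and 48.0.

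**Figure D3:**
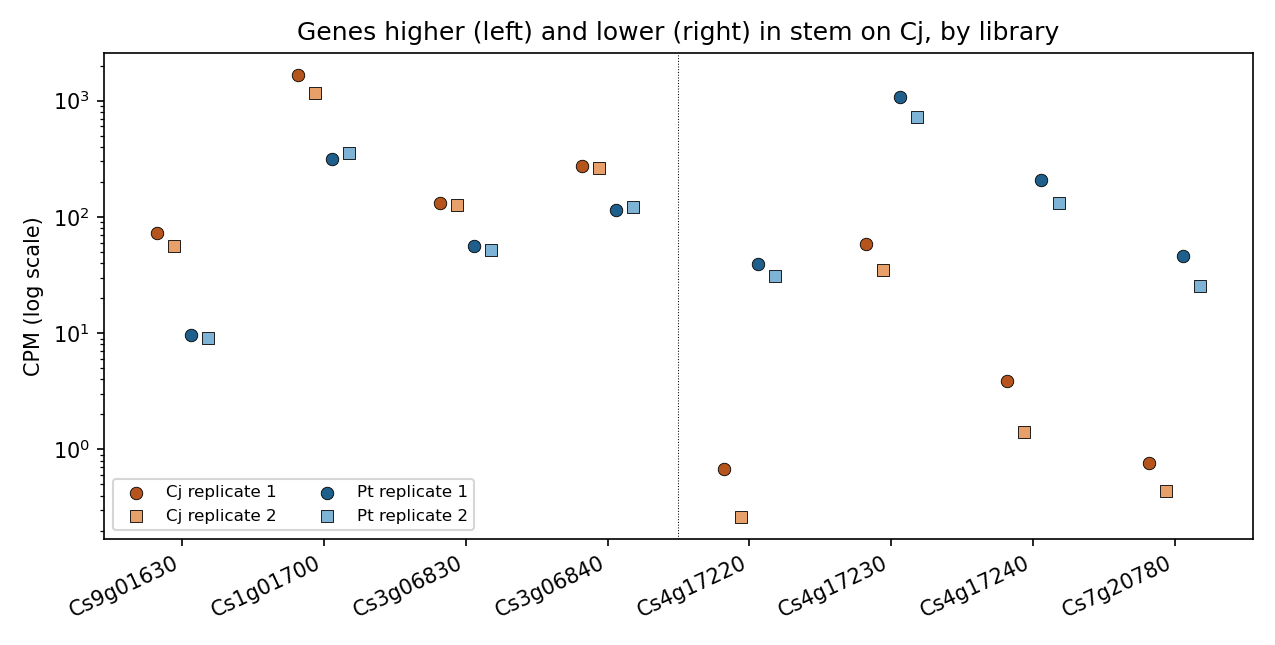
Level in CPM (log scale) of 8 called genes in each of the 4 stem libraries, orange for Cj and blue for Pt, circles for replicate 1 and squares for replicate 2. Left of the dotted line both Cj libraries lie above both Pt libraries, for example 72.9 and 55.8 against 9.58 and 9.18 CPM for Cs9g01630. Right of it both Cj libraries lie below, for example 0.676 and 0.264 against 39.2 and 30.9 CPM for Cs4g17220.

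The decrease ended sharply at both edges of the run. The 5 tested IDs before it had log2 fold changes of 0.08 to 0.22, none of them called, with the nearest, Cs4g17210, at 0.22 ± 0.39. After it Cs4g17250 stood at 62.4 and 50.5 CPM on Cj and 47.1 and 49.0 CPM on Pt, a log2 fold change of 0.23 ± 0.14 (SE, edgeR adjusted p = 0.472). The next ID, Cs4g17260, leaned the opposite way to the run, at 85.5 and 41.6 CPM on Cj against 23.0 and 24.6 CPM on Pt. Its log2 fold change of 1.41 ± 0.30 did not pass (edgeR adjusted p = 0.0893). The 3 IDs after that lay between -0.08 and 0.05.

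**Figure D4:**
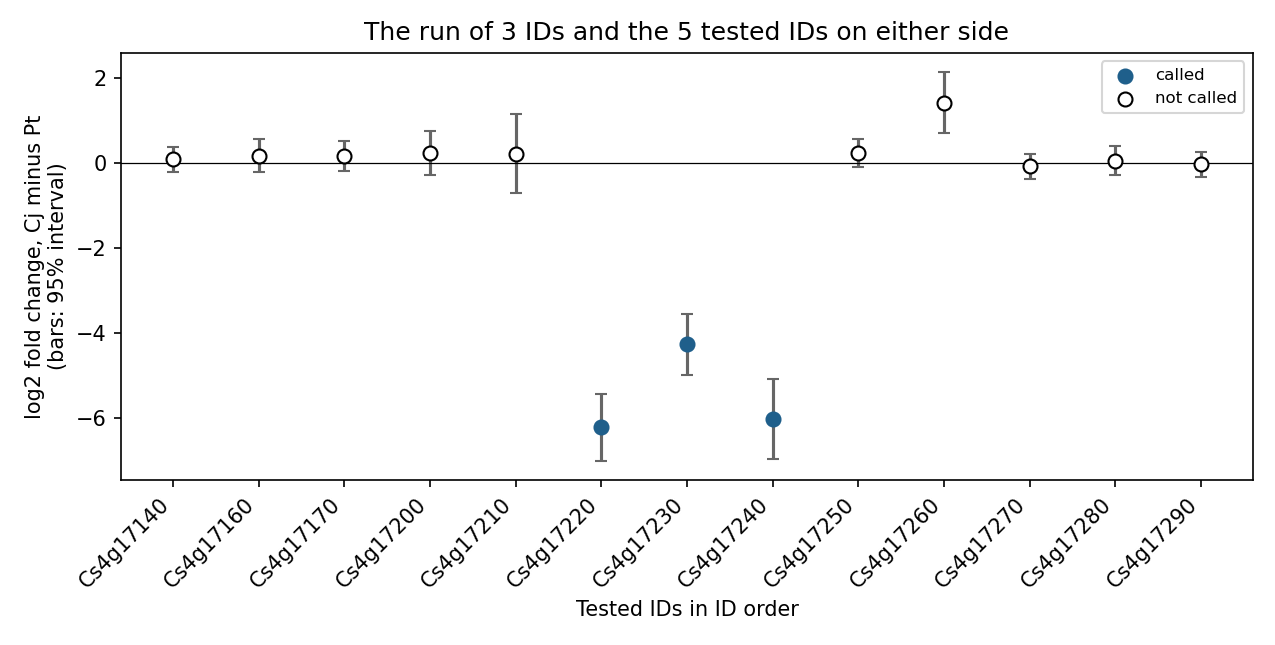
Log2 fold change (Cj minus Pt, with 95% intervals from the edgeR fit) of the 3 called IDs and the 5 tested IDs before and after them, in ID order. Filled points were called; the 3 lie at -6.21, -4.27 and -6.02, and the neighbours range from -0.08 to 1.41.

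A second pair of consecutive IDs rose, and this was the only other run of tested IDs called in one direction. Cs3g06830 stood at 131.5 and 127.2 CPM on Cj and 56.6 and 51.7 CPM on Pt. Cs3g06840 stood at 275.0 and 264.1 CPM on Cj and 114.5 and 122.2 CPM on Pt. Replicates were close on both sides and the gap was 2.25-fold and 2.16-fold. The log2 fold changes were 1.26 ± 0.12 and 1.19 ± 0.12 (SE, edgeR adjusted p = 0.0177 each). Both lost their calls without either Pt replicate and on log2(FPKM + 0.1). This pair was picked with its values in view.

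Of the 12 genes with a gap of at least 4-fold, 1 of the 3 that were higher and 7 of the 9 that were lower on Cj were called. Over all genes tested, 66 of 19527 (0.338%) were called. The gap and the test draw on the same 4 libraries, so a larger share called among these 12 is built in. The called gene among those higher was Cs9g01630, described above. The other higher ones, Cs7g03660 and Cs4g16440, lay near the limit of depth. Cs7g03660 had 25 and 29 counts on Cj against 6 and 5 on Pt, and Cs4g16440 had 18 and 19 against 4 and 4. Neither passed (edgeR adjusted p = 0.0738 and 0.0898). Among the lower ones outside the run, Cs7g20780 stood at 0.773 and 0.440 CPM on Cj and 46.0 and 25.4 CPM on Pt. It had a log2 fold change of -5.87 ± 0.43 (SE, edgeR adjusted p = 0.00591). These 3 IDs were named after their values were seen.

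Presence in the libraries of a single side was rare and came with low counts. Listed in both Cj libraries and neither Pt library were 167 genes, and 155 showed the reverse, with a median of 1.5 counts per library on each side. With at least 10 counts in both libraries, 1 gene was listed on Cj alone and 3 on Pt alone. Cs7g07340 had 12 and 10 counts on Cj and 0 on Pt, which makes it at least 7.59-fold higher on Cj, taking 3 counts over both Pt libraries as the limit that a count of 0 allows. Orange1.1t03944 had 25 and 23 counts on Pt and 0 on Cj, at least 15.5-fold lower on Cj by the same limit over both Cj libraries. It was among the 36 called genes (edgeR adjusted p = 0.0472), but was called in 7 of the 14 fits tried. Orange1.1t01841 had 25 and 15 counts on Pt and 0 on Cj, at least 12.9-fold lower, and did not pass (edgeR adjusted p = 0.0592). These limits allow for counting error on the side with 0 counts only, and take the counts on the other side as exact. They do not cover the spread between libraries. Cs7g07340 had too few counts to be tested.

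The most abundant stem transcripts did not pass the test. Cs5g27060 had the highest mean deposited FPKM, at 12237 and 12302 on Cj and 12811 and 14607 on Pt. Its highest library was on Pt, and the sides lay close together. The log2 fold change was -0.14 ± 0.15, with a 95% interval of -0.50 to 0.22 (edgeR adjusted p = 0.703). Cs4g09550 followed, at 4459 and 6743 FPKM on Cj and 3900 and 5252 on Pt, where the groups overlapped. Its log2 fold change was 0.30 ± 0.23, with an interval of -0.24 to 0.85 (edgeR adjusted p = 0.574).

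Called genes occurred in every ID series, at unequal shares. The IDs begin with Cs and a number from 1 to 9, or with orange1.1t. Of 16388 tested IDs of the first form 27 rose and 28 fell (0.336%), and of 3139 of the second 3 rose and 8 fell (0.350%). Among the 9 numbered starts the percentage called ran from 0.173% for Cs7 (0 rose and 4 fell of 2312) to 1.04% for Cs9 (6 rose and 7 fell of 1246). The median log2 fold change stayed between -0.02 and 0.01 in every start. These shares were not tested against each other.

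Calls were more frequent at high levels. Of the 6509 genes of highest level (median 79.5 CPM), 20 rose and 20 fell, or 0.615%. Among the 6509 of middle level (median 22.6 CPM) 8 rose and 8 fell, and among the 6509 of lowest level (median 3.99 CPM) 2 rose and 8 fell. Gaps of at least 2-fold had the opposite order, with 26 genes at high, 24 at middle and 97 at low level. By listed length, 26 of the 6509 shortest genes were called (11 rose and 15 fell), 26 of the middle group (14 and 12) and 14 of the longest (5 and 9). Genes with several listed transcripts were called in 23 of 7427 cases (11 and 12) and those with 1 transcript in 43 of 12100 (19 and 24).

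The listed length of a gene with several transcripts differs between libraries, and so follows the mix of transcripts estimated there. It was compared in 6975 such genes with at least 50 counts in every stem library. Few listed lengths differed between rootstocks, though transcripts of like length can exchange without moving the length. A gap of at least 1.1-fold between the sides was held by 3 genes longer and 7 shorter on Cj, or 0.143%, and one of at least 1.2-fold by 1 longer and 2 shorter. Between replicates the median difference in length was 0.517% on Cj and 0.510% on Pt. At least 1.2-fold apart in length were 13 genes between the Cj replicates and 11 between the Pt replicates. The gap between sides is a stricter measure, since it must hold for every library of both sides. The gene with the widest gap was Cs9g17620, with 3 transcripts, whose length was 3609 and 3612 bases on Cj and 2608 and 2515 bases on Pt. Its level was 217.7 and 118.3 CPM on Cj against 56.6 and 56.3 CPM on Pt, a log2 fold change of 1.57 ± 0.26 (SE, edgeR adjusted p = 0.0593). In the deposited FPKM, which are scaled to length, the level was 58.1 and 32.6 on Cj against 21.9 and 22.0 on Pt. In the other direction Cs7g02110, with 2 transcripts, was at 2011 and 2388 bases on Cj and 3209 and 3262 bases on Pt. It had 549 and 793 counts on Cj and 1236 and 1327 on Pt, a log2 fold change of -0.90 ± 0.16 (SE, edgeR adjusted p = 0.0732). Counts and CPM are not scaled to length, so the log2 fold changes of both genes are not independent of their length gaps. Neither gene was among the called genes, and both were chosen after their values were seen.

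How many genes were called in stem depended on the libraries and the test used. With all 12 libraries of the series in the fit 941 genes were called of 21261 (4.43%), 534 higher and 407 lower, and these held 62 of the 66. The 8 stem and leaf libraries gave 343 (192 and 151), with 59 of the 66, and DESeq2 on the 4 stem libraries gave 697 (398 and 299), with 65 of the 66. These counts leaned to genes higher on Cj, unlike the 30 and 36 of the fit described above. Without Cj stem replicate 2 the count rose to 1172 (780 higher and 392 lower). It was 90 without Cj stem replicate 1, with 58 of the 66, 10 without Pt stem replicate 1, and 4 genes were called when Pt stem replicate 2 was left out. In those fits a lone library is assumed to vary like the pair on the other rootstock. In none of the 66 do the sides overlap, and all fits draw on these stem libraries, so their direction could hardly turn. Every one of the 66 kept its direction in all 13 other fits that tested it. Called in each of them were 4 genes, all lower on Cj: Cs4g17220, Cs4g17230, Cs4g17240 and Cs7g20780.

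**Figure D5:**
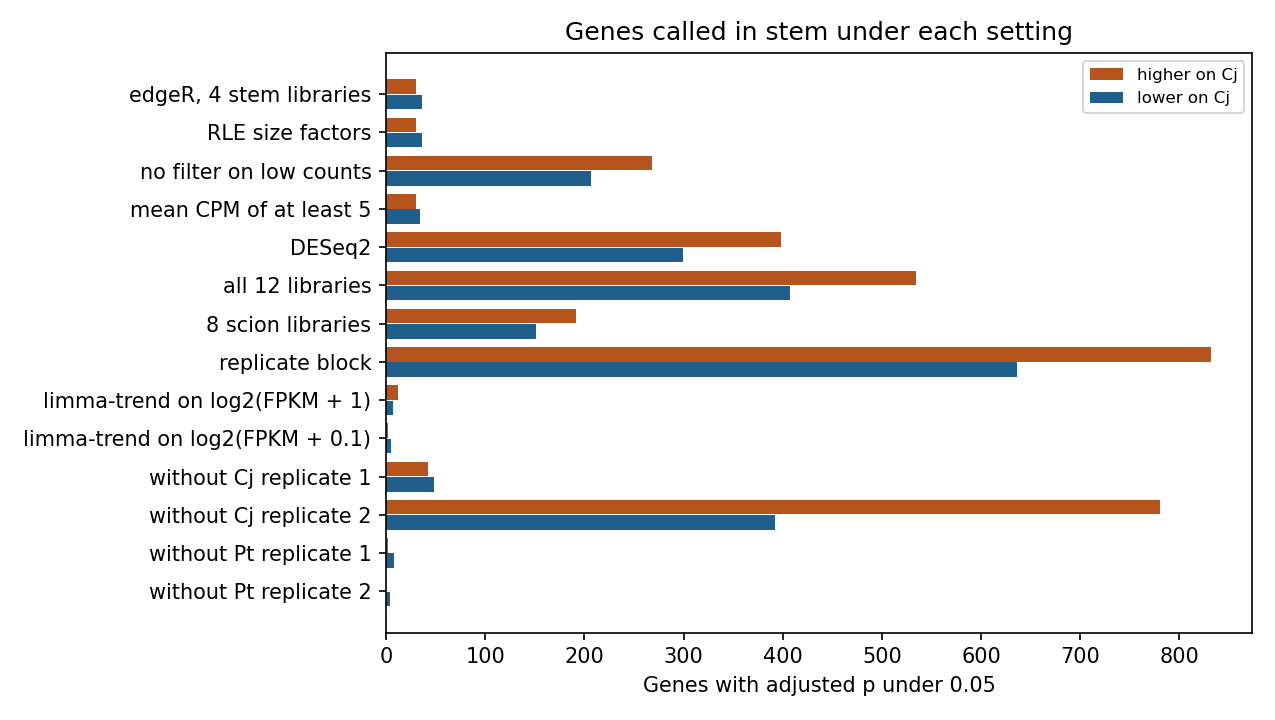
Number of genes with an adjusted p under 0.05, higher (orange) and lower (blue) on Cj, in the edgeR fit of the 4 stem libraries and in each other fit tried. The totals run from 4 without Pt replicate 2 to 1468 with the replicate number as a block, against 66 in the fit described here.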

How the data were processed

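RNA of 4 stem libraries was compared, 2 per rootstock. Poly(A) RNA, per the labels' protocols, was fragmented to about 200 bases, copied from random primers and amplified by PCR. Aligner, counting tool, annotation, build and strandedness were not given in the sources used here, which leaves overlapping genes and near-identical copies uncertain. The authors deposited a table per library with, per the file headers, a gene length, an expected count and an FPKM. Those deposited expected counts carry no depth scaling, and 73.1% to 73.7% were whole within 0.005. The FPKM values were scaled to length and depth by the authors.

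Expected counts were rounded, and genes absent from a table were set to 0, since the lowest listed count is 0.02. edgeR 4.0.16 (limma 3.58.1, R 4.3.3) was used with filterByExpr, TMM and the quasi-likelihood test on the 4 stem libraries, which leaves 2 residual degrees of freedom. The call threshold was an adjusted p under 0.05 (Benjamini-Hochberg, 19527 genes). The SE of a log2 fold change is its size over the root of its F statistic. CPM use TMM-scaled library sizes, and pairs of libraries were compared after adding 0.5 CPM. Counts of 3 correspond to 0.264 to 0.283 CPM per library on the library totals without TMM factors. The replicates differed beyond sampling noise (chi-square per degree of freedom 11.8 on Cj and 8.47 on Pt).

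No ID matched the RefSeq table of 29331 genes (assembly DVS_A1.0), so marker and pathway lists could not be applied. The genes named were, per direction, the 2 called IDs with the largest change, a mean log2 CPM of at least 3 and no overlap, their tested neighbours, the 2 highest in FPKM, and up to 2 per side of those listed on one side with at least 10 counts. Members and rules were chosen with earlier results of these data known. DESeq2 1.42.0, limma on log2(FPKM + 1) and log2(FPKM + 0.1), other filters and scalings, more libraries, a block and leaving out each library were alternatives. The test was checked on simulated counts that gave every gene and library the same spread. Such counts do not cover the unequal replicates seen here.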

Additional observations from a re-analysis of the deposited data

How the results depend on the processing

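The 66 called genes became 475 with no filter on low counts, 697 with DESeq2, 941 with all 12 libraries, 343 with the 8 scion libraries, 19 with limma on log2(FPKM + 1) and 7 on log2(FPKM + 0.1). Leaving out 1 library gave 4 to 1172. RLE scaling (66) and a mean of at least 5 CPM (64) stayed within 1.5 times. The 147 genes with a 2-fold gap became 84 at a mean of at least 5 CPM and 294 to 839 without 1 library, and stayed at 117 to 150 under the other settings. The 4 genes listed on one side became 12 at 5 counts, 1 at 20 counts and 15 to 27 without 1 library. The cause of these shifts was not tested, except that fewer libraries ease the gap and listing criteria by construction. For the named genes 48 of 52 values kept direction and call and 4 lost the call.

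With the replicate number as a block the count was 1468 (832 higher and 636 lower), with all 66 among them. The deviations of same-numbered libraries correlated at r = 0.20 across genes, and the labels do not say what a number stands for, so the block is only an alternative. Depth limits statements on genes with few counts, and 2 libraries per side limit all p-values.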

Other observations

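Neighbouring IDs listed on opposite sides occurred at low counts. Cs4g15130 had 23 and 7 counts in the Cj libraries and 0 in both Pt libraries, while Cs4g15140 had 0 in both Cj libraries and 9 and 23 in the Pt libraries. Neither had enough counts in every library of its side for the minimum of 10, and neither was tested. The pair was noticed after the values were seen, and how reads are shared between near-identical genes is not known here.

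Another pair of neighbouring IDs moved alike. Cs9g17610, at 142.5 and 76.6 CPM on Cj and 30.7 and 25.1 CPM on Pt, was called (log2 fold change 1.97 ± 0.28 SE, with edgeR adjusted p = 0.0472) in this fit and in 10 of the 14 fits tried in all. Its neighbour Cs9g17620, the gene with the widest gap in listed length, narrowly missed the threshold. In both, Cj replicate 1 was the highest library by far and Cj replicate 2 lay between it and the Pt libraries. This pair too was singled out after its values were seen.

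Among abundant genes, Cs5g24670 stood at 746.9 and 657.3 CPM on Cj and 245.6 and 277.7 CPM on Pt. Both Cj libraries lay at least 2.37-fold above both Pt libraries, with a log2 fold change of 1.42 ± 0.14 (± SE, edgeR adjusted p = 0.0177). It was called in 10 of the 14 fits tried, and it was named after its values were seen.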
